A study of Mus musculus with 27 samples.

Results

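The second hour of rosiglitazone was followed in mature 3T3-L1 adipocytes by setting the 3 arrays of cells treated for 2 h against the 3 arrays of cells treated for 1 h. These are 6 of the 27 arrays of a time course, and 18781 genes were compared on all of them. The cells had received 1 µM rosiglitazone for 2 h or for 1 h, and the labels of the groups differ only in this length of exposure. The drug was dissolved in DMSO. The other arrays held untreated cells at time 0 and cells exposed for 30 min, 6 h, 12 h, 24 h, 36 h and 48 h, again 3 arrays each. The study's design also names cells given DMSO, and no array used here is labelled so. The labels do not say whether the time 0 cells received DMSO, so in differences from untreated cells the drug and its solvent cannot be told apart. 3T3-L1 is a line of mouse preadipocytes, and all the cells had been turned into adipocytes with dexamethasone, insulin and 3-isobutyl-1-methylxanthine, followed by insulin and then plain growth medium. The model is a single line in culture, without the vessels, nerves and immune cells of fat tissue. Hours of drug and hours since the time 0 harvest cannot be told apart.

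Rosiglitazone is a thiazolidinedione, a synthetic ligand of the nuclear receptor PPARγ. PPARγ pairs with a retinoid X receptor on DNA and drives genes that take up, store and burn fatty acids, and adipocytes depend on it for their identity. The messenger RNAs of immediate early genes and of feedback inhibitors of growth factor signalling are made quickly and decay quickly, so their levels can move within an hour. Messenger RNAs of abundant fat cell proteins are mostly longer lived.

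Values are log2 intensities, so a difference of 1 is a 2-fold difference in signal, and changes are the mean at 2 h minus the mean at 1 h with the standard error from limma, n = 3 arrays each. Adjusted p-values are limma's, two-sided, with Benjamini-Hochberg adjustment over all 18781 genes, and genes are said to have risen or fallen at an adjusted p under 0.05. The values ran from 1.67 to 13.19, the 6 array medians lay between 4.08 and 4.13, and the gene in the middle of the range averaged 4.76. Correlations over genes were 0.998 to 0.9981 among the 2 h arrays, 0.9977 to 0.998 among the 1 h arrays and 0.9967 to 0.9977 between the groups. The labels number the replicates without saying whether they were separate cultures, so the p-values cover the spread among these arrays alone, and that spread may be technical. Markers bore out the adipocyte label: the mean over 10 adipocyte markers was 11.44 to 11.49 at 2 h and 11.48 to 11.55 at 1 h, while 8 macrophage markers averaged 3.63 to 3.70 at 2 h and 3.65 to 3.81 at 1 h. Pparg was the only gene called in these lists. A list of 11 preadipocyte and fibroblast markers averaged 6.74 to 6.81 at 2 h and 6.80 to 7.01 at 1 h, with 0 called and a median change of -0.09, and this difference stands beside every matrix and growth factor gene below, its part in them not tested. Average levels of the preadipocyte and fibroblast markers ran from 2.98 for Cd34 to 10.14 for Dlk1, with a median of 7.89. In RNA from whole cultures, fewer cells of a type and less RNA per cell cannot be told apart.

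Between 1 h and 2 h, 354 genes changed (1.88% of those tested), 184 upward (0.98%) and 170 downward (0.905%). These shares of all genes belong beside each count of list members below. An unadjusted p below 0.05 was reached by 2362 genes. Most changes were small, with a median size of 0.37 among genes that rose and 0.41 among genes that fell. At least 1.5-fold was reached by 47 called genes (0.25%), of which 12 rose (0.0639%) and 35 fell (0.186%). The largest increase was 0.90, and 5 genes fell at least 2-fold. The arrays of the groups did not overlap for 183 of the 184 genes that rose and 169 of the 170 that fell. Over all genes, the arrays separated in those directions for 12% and 9.08%. The calls compare the means of these same arrays, so the separation largely follows from the call and is no separate check of it. The number of calls changed with the arrays and the model. It was 195 without 2 h replicate 2, 147 without 2 h replicate 3, 188 without 1 h replicate 1 and 178 without 1 h replicate 2, and 254 and 257 without 2 h replicate 1 or 1 h replicate 3. With all arrays kept, it was 227 with the replicate number as a block and 700 with array weights.

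**Figure D1:**
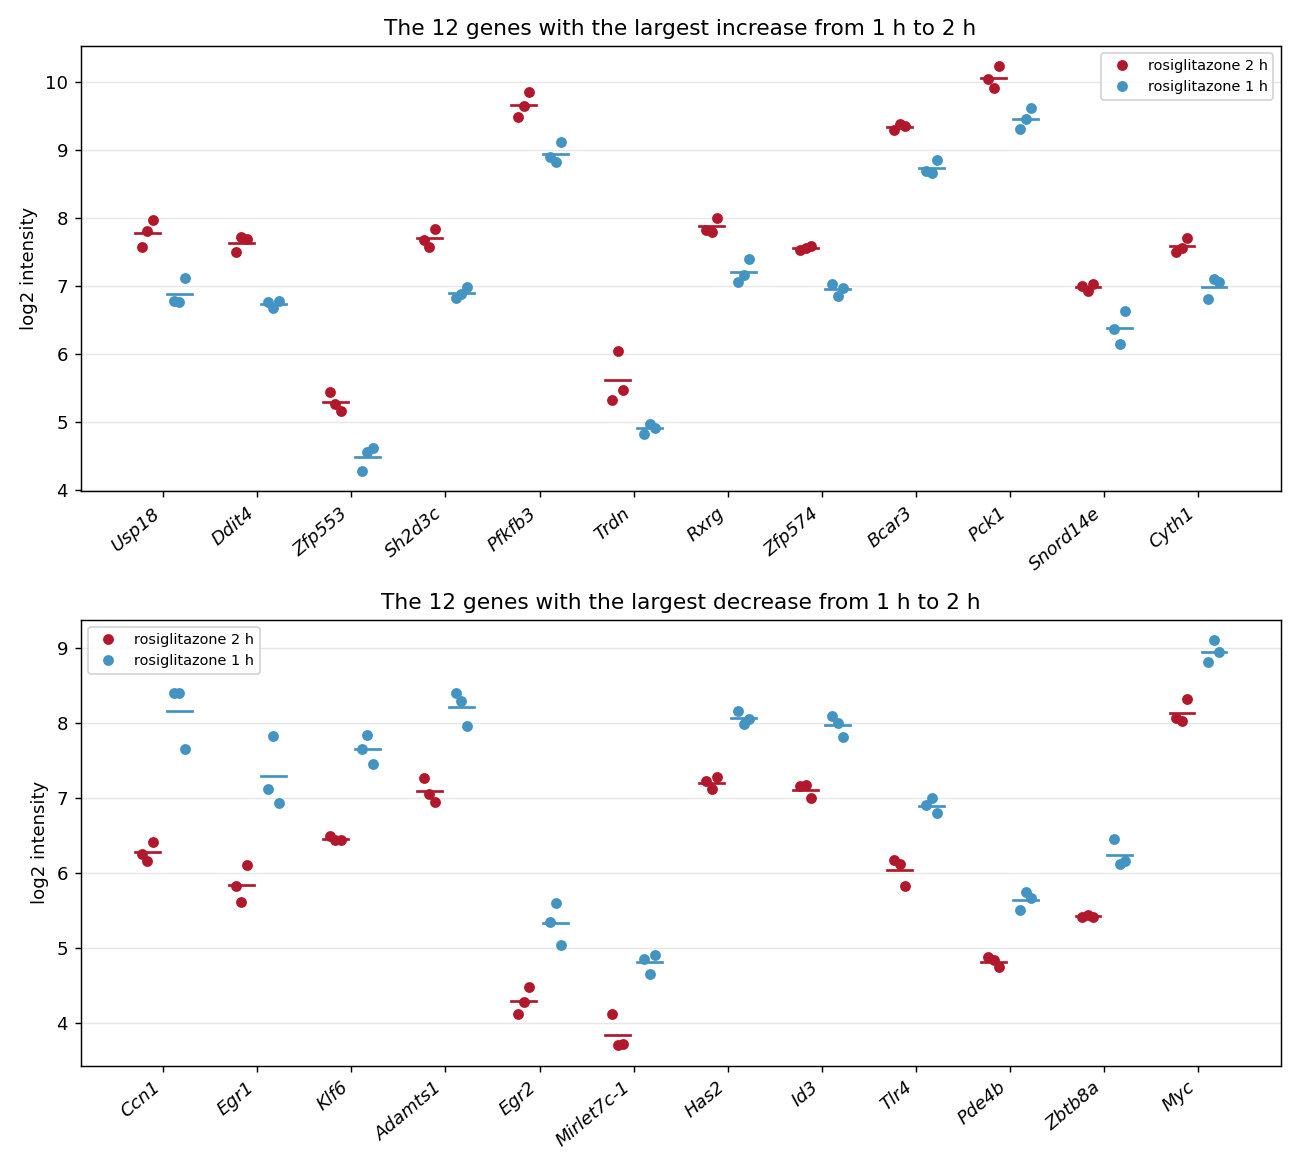
Log2 intensity of the 12 called genes with the highest and the 12 with the lowest change, 1 point per array, 3 arrays at 2 h (red, left of each pair) and 3 at 1 h (blue), with a line at the mean. The points of the groups do not overlap for any of the 24 genes, which is part of how they were chosen; Ccn1 at 1 h lies between 7.67 and 8.41 and at 2 h between 6.16 and 6.42.

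The 5 genes that fell at least 2-fold were Ccn1, Egr1, Klf6, Adamts1 and Egr2. Ccn1 (probe set 10502655), a secreted matrix protein induced by the factors YAP and SRF, read 6.25, 6.16 and 6.42 at 2 h, against 8.41, 8.41 and 7.67 at 1 h. It fell by 1.88 (SE 0.25, adjusted p = 0.000106), the largest change of any called gene. Its means over time were 7.92 in untreated cells, 8.66 at 30 min, 8.16 at 1 h, 6.28 at 2 h and 5.80 at 6 h, so the drop below the untreated level came in the second hour. Klf6, a zinc finger transcription factor, read 6.50, 6.44 and 6.44 at 2 h, against 7.66, 7.85 and 7.45 at 1 h. That is a change of -1.19 ± 0.11 (adjusted p = 6.85e-07), after levels of 7.81, 7.79 and 7.65 in untreated cells, at 30 min and at 1 h. The 2 h arrays of Klf6 were close together and clear of the 1 h arrays, and the call held in all 17 alternative models.

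Egr1, a growth factor induced transcription factor, read 5.83, 5.62 and 6.11 at 2 h, against 7.12, 7.84 and 6.93 at 1 h (-1.45 ± 0.30, adjusted p = 0.00983). Egr2, a related factor that acts early in fat cell differentiation, read 4.12, 4.28 and 4.48 at 2 h, against 5.35, 5.60 and 5.04 at 1 h (-1.03 ± 0.21, adjusted p = 0.00819). In both genes 1 h replicate 2 was the highest array. Without it the changes were -1.18 (adjusted p = 0.0862) for Egr1 and -0.90 (adjusted p = 0.0628) for Egr2, and without 2 h replicate 2 Egr1 changed by -1.33 (adjusted p = 0.0622), so these calls ended. Myc, a driver of growth and ribosome production, read 8.07, 8.03 and 8.32 at 2 h, against 8.82, 9.11 and 8.95 at 1 h (-0.81 ± 0.11, adjusted p = 0.000172). Its 1 h mean of 8.96 stood above the untreated mean of 8.63, a difference that was not called (0.33, limma adjusted p = 0.244). Its 2 h mean of 8.14 stood below the untreated mean (-0.48, adjusted p = 0.00871). The call of Myc from 1 h to 2 h ended without replicate number 2 in every group (-0.68, adjusted p = 0.063).

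The median change of 31 measured immediate early genes was -0.23, against 0.01 over all genes. Of the 31, 7 fell, where 0.905% of all genes did, and 0 rose. Beside Egr1, Klf6, Egr2 and Myc, these were Klf4, Btg2 and Btg1, which fell by 0.64, 0.30 and 0.24; Btg1 and Btg2 are antiproliferative proteins. The other 24 were not called. Fos read 3.93, 4.18 and 3.95 at 2 h and 3.93, 4.39 and 4.46 at 1 h, below the middle gene in both groups. The list's count of called genes was 2 without 1 h replicate 2 and 4 without 1 h replicate 1. Without replicate number 1, 2 or 3 in every group it was 4, 1 and 3.

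Feedback inhibitors of receptor tyrosine kinase and MAP kinase signalling also fell in part. Of 26 measured genes 4 fell, where 0.905% of all genes did, and 0 rose. All 26 had a change below 0, with a median of -0.16 against 0.01 over all genes. Errfi1, which blocks the EGF receptor, read 8.26, 8.05 and 8.01 at 2 h, against 8.88, 9.08 and 8.63 at 1 h (-0.76 ± 0.095, adjusted p = 6.04e-05). This decrease came on top of an earlier one, since Errfi1 averaged 9.91 in untreated cells, 9.73 at 30 min and 8.86 at 1 h, and it stood at 8.28 at 6 h. Spry2, an inhibitor of the Ras to MAP kinase route, read 5.16, 5.03 and 5.24 at 2 h, against 5.93, 5.68 and 5.54 at 1 h (-0.58 ± 0.11, adjusted p = 0.00335). Its relative Spry1 read 6.09, 5.90 and 6.09 at 2 h, against 6.51, 6.64 and 6.21 at 1 h (-0.43 ± 0.087, adjusted p = 0.00765). Dusp6, a phosphatase of the MAP kinase ERK, read 3.97, 3.88 and 3.96 at 2 h, against 4.28, 4.73 and 4.86 at 1 h (-0.69 ± 0.17, adjusted p = 0.0332).

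The 2 h values of Dusp6 were below the middle gene and nearly equal, while its 1 h arrays were spread wide. Its call ended when any single array other than 1 h replicate 1 was left out, with changes of -0.57 to -0.70 and adjusted p up to 0.166. That of Spry1 ended without replicate 2 of either group (-0.36, adjusted p = 0.067, without the 2 h array and -0.34, adjusted p = 0.0758, without the 1 h array). Dusp4, another ERK phosphatase, read 6.83, 6.73 and 6.94 at 2 h and 7.04, 7.38 and 7.40 at 1 h and was not called (-0.44 ± 0.13, adjusted p = 0.0748). The list's count was 2 without 2 h replicate 2 or without 1 h replicate 2. Without replicate number 1, 2 or 3 in every group it was 3, 1 and 3.

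Promoter letters were read for the called genes because fast genes are known for binding sites of SRF, whose site is the CArG box, and of the cyclic AMP factor CREB, whose site is the CRE (TGACGTCA). RefSeq promoter windows of GRCm38.p6, each 300 bases from 250 before to 50 after a start site, were found for 14713 genes, among them 158 that rose and 130 that fell; all windows listed for a gene were searched on both strands. A CArG box stood in 0 of the 158 and in 7 of the 130 (5.38%), against 1.64% of all genes. The CRE stood in 1 of the 158 (0.633%) and in 7 of the 130 (5.38%), against 2.78% of all genes. Most genes that fell thus held neither motif in these windows, among them the immediate early genes Klf6, Klf4 and Btg1. The following stretches show the boxes in 6 genes that fell, picked after their values were seen and with changes between -1.03 (Egr2) and -0.30 (Btg2), on the gene's own strand with the motif in capitals. Egr2, Filip1l and Rnd3 carry the CArG box, and Errfi1, Plk2 and Btg2 the CRE. They lie at chr10:67537454-67537543 (+), chr16:57549140-57549229 (+), chr2:51149162-51149251 (-), chr4:150854979-150855066 (+), chr13:110394942-110395029 (+) and chr1:134079274-134079361 (-), all before the start site.
Egr2: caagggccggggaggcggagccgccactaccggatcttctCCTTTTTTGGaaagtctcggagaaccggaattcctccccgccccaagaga
Filip1l: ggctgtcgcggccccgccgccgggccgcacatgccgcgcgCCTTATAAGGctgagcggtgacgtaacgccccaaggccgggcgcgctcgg
Rnd3: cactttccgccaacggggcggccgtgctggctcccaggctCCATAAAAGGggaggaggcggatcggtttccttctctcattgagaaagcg
Errfi1: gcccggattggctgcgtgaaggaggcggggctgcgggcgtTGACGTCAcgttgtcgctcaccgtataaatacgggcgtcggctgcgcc
Plk2: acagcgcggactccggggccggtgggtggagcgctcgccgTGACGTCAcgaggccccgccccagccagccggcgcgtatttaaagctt
Btg2: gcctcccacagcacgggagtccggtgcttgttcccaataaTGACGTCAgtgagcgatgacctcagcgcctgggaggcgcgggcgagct

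Among the genes that carry these boxes, Filip1l, a relative of a filamin-interacting protein, read 5.73, 5.59 and 5.59 at 2 h, against 6.32, 6.05 and 6.39 at 1 h (-0.62 ± 0.11, adjusted p = 0.0027). The change of Filip1l ran from -0.72 to -0.35 over the alternative models. Rnd3, which loosens the actin cytoskeleton, read 5.94, 5.94 and 5.75 at 2 h, against 6.57, 6.47 and 6.22 at 1 h (-0.55 ± 0.13, adjusted p = 0.023). Plk2, a stress induced kinase, read 4.59, 4.69 and 4.73 at 2 h, against 5.47, 5.48 and 5.30 at 1 h (-0.75 ± 0.16, adjusted p = 0.0103). The groups did not overlap in any of these genes, which is part of how they were chosen. The call of Rnd3 ended without any 1 of 4 arrays (2 h replicates 2 and 3, 1 h replicates 1 and 2; adjusted p 0.0571 to 0.135), and that of Plk2 without 1 h replicate 1 or 2 (adjusted p = 0.0521 and 0.0552). Of 24 measured YAP and SRF target genes, Ccn1 and Filip1l fell and 22 were not called, with a median of -0.07. Ccn2, the close relative of Ccn1, read 3.80, 3.69 and 3.74 at 2 h and 3.94, 3.89 and 3.76 at 1 h, a low signal with a change of -0.12 ± 0.095 (adjusted p = 0.672).

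Other motifs were searched in the same windows. The AP-1 site TGAGTCA stood in 10 of the 158 promoters of genes that rose (6.33%) and in 1 of the 130 of genes that fell (0.769%), against 5.29% of all genes. The E-box CACGTG, a site of MYC and clock factors, stood in 13.9% and 10% of them, against 9.58% of all. The FOXO site GTAAACA stood in 3.16% and 4.62%, against 3.5% of all. A tandem repeat of AGGTCA with 1 base between copies, the exact form of the PPARγ and retinoid X receptor site, stood in 0 of the 158 and 0 of the 130, and in 8 of all 14713. These shares describe the letters of short windows and were not tested.

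The called genes of the matrix list, which does not hold Ccn1, encode enzymes, and none of its 11 collagens was called. Adamts1, a protease that cuts proteoglycans, read 7.28, 7.06 and 6.95 at 2 h, against 8.40, 8.30 and 7.96 at 1 h (-1.13 ± 0.11, adjusted p = 2.03e-06). Its relative Adamts5 read 7.97, 8.03 and 7.71 at 2 h, against 8.57, 8.54 and 8.53 at 1 h (-0.65 ± 0.093, adjusted p = 0.000248). Has2, which makes hyaluronan, read 7.23, 7.12 and 7.28 at 2 h, against 8.17, 7.99 and 8.06 at 1 h (-0.86 ± 0.12, adjusted p = 0.000248). Adamts1 and Has2 kept their calls in all 17 alternatives, and their later paths parted: Adamts1 averaged 6.95 at 6 h, while Has2 was back at 8.22, close to its untreated 8.29. Adamts1, Adamts5 and Has2 were the only called genes among the 33 measured genes of this list, whose median was -0.02. Fgf7, a growth factor for epithelia and preadipocytes, read 6.43, 6.03 and 6.17 at 2 h, against 7.05, 6.83 and 6.96 at 1 h (-0.74 ± 0.14, adjusted p = 0.00343).

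Several signalling genes moved with them. Id3, a dominant-negative partner of helix-loop-helix factors, read 7.17, 7.17 and 7.00 at 2 h, against 8.10, 8.003 and 7.82 at 1 h (-0.86 ± 0.12, adjusted p = 0.000142). Id3 had climbed first, with means of 6.72 in untreated cells, 7.57 at 30 min and 7.97 at 1 h, and it stood at 6.29 at 6 h. Pde4b, a phosphodiesterase that breaks down cyclic AMP, read 4.88, 4.84 and 4.74 at 2 h, against 5.51, 5.76 and 5.67 at 1 h (-0.82 ± 0.10, adjusted p = 5.61e-05). It was the only gene called of 19 measured targets of cyclic AMP and CREB. Tlr4, the receptor for bacterial lipopolysaccharide, read 6.17, 6.13 and 5.84 at 2 h, against 6.91, 7.00 and 6.80 at 1 h (-0.86 ± 0.14, adjusted p = 0.00105). Rasl11a, a Ras-like GTPase, read 6.36, 6.26 and 6.14 at 2 h, against 7.16, 6.95 and 6.83 at 1 h (-0.72 ± 0.10, adjusted p = 0.000187) and kept falling, to a mean of 5.53 at 6 h. Zbtb8a, a zinc finger protein, was nearly the same on all 2 h arrays at 5.42, 5.44 and 5.41, against 6.45, 6.12 and 6.17 at 1 h (-0.82 ± 0.10, adjusted p = 6.64e-05).

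**Figure D2:**
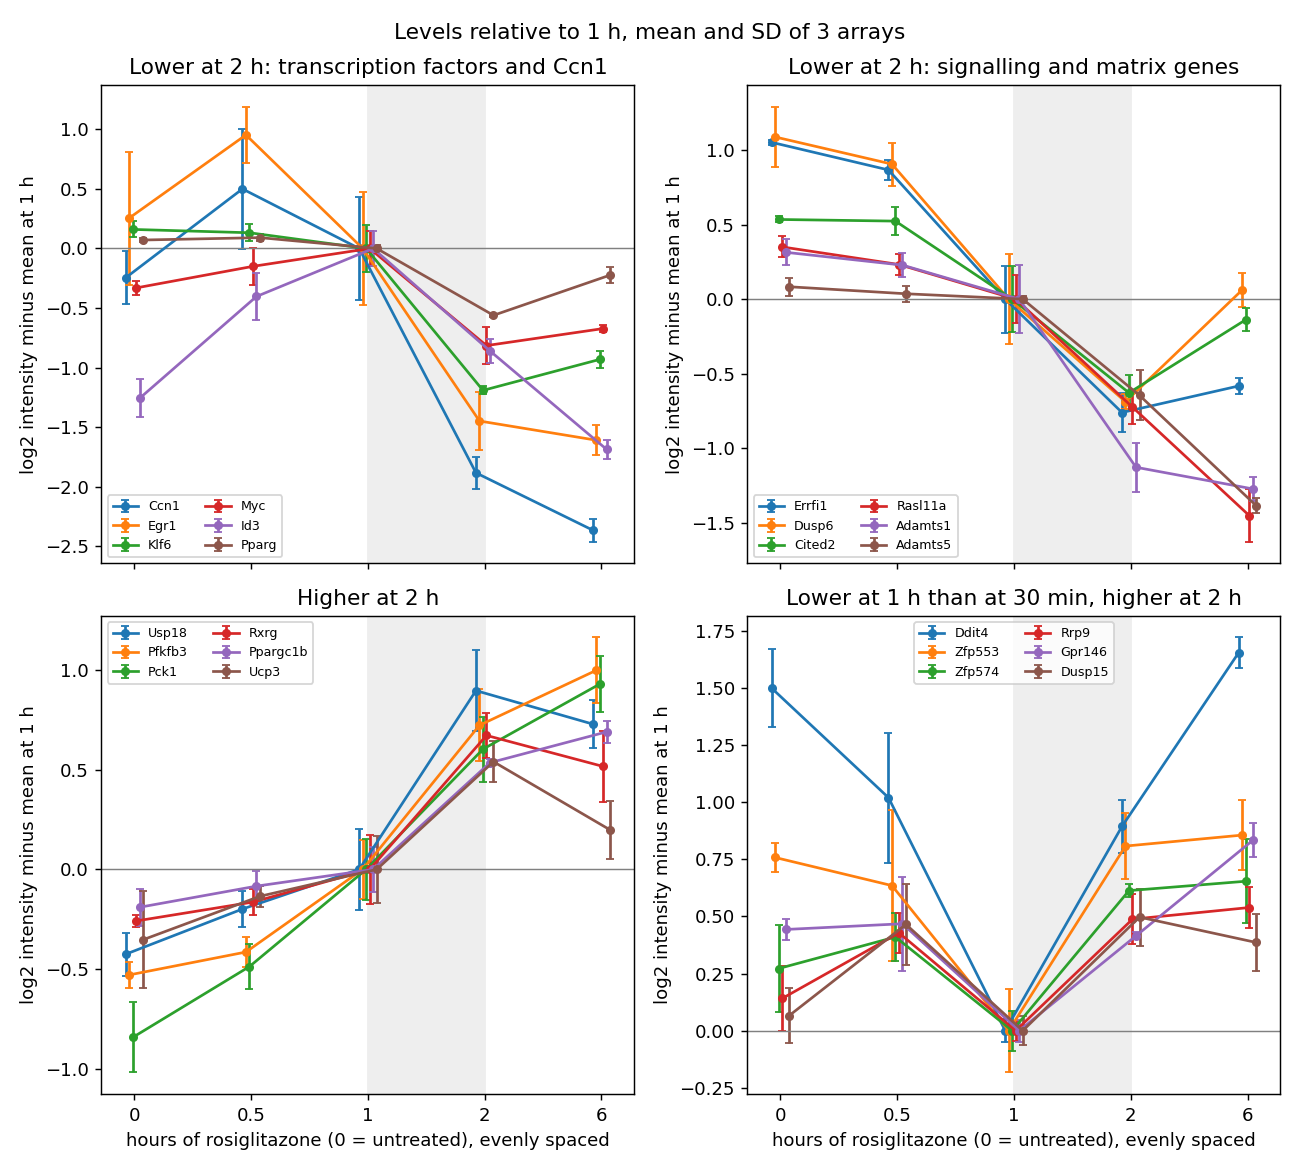
Mean log2 intensity minus the mean at 1 h, with bars of 1 SD over 3 arrays, from untreated cells (0) to 6 h, for genes lower at 2 h (top) and higher at 2 h (bottom); times are evenly spaced and the step from 1 h to 2 h is shaded. Id3 is higher at 1 h than in untreated cells and lower again at 2 h, Errfi1 falls across both hours, and Ddit4 is at its lowest mean at 1 h.

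Pparg, the target of the drug, fell in the second hour. It read 10.88, 10.87 and 10.86 at 2 h, against 11.42, 11.42 and 11.46 at 1 h (probe set 10540897; -0.56 ± 0.049, adjusted p = 5.07e-07). The spread within each group was far smaller than this gap, with an SD of 0.011 at 2 h and 0.025 at 1 h. The call held in all 17 alternative models. The change was smaller than 1.5-fold, a minimum that is not among the 17. Before that the level had stayed near 11.5, with means of 11.50 in untreated cells, 11.52 at 30 min and 11.43 at 1 h, and it was 11.21 at both 6 h and 48 h. Rxra, a partner receptor of PPARγ, was not called: it read 9.57, 9.53 and 9.59 at 2 h and 9.62, 9.68 and 9.50 at 1 h (-0.04, 95% confidence interval half-width 0.16).

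Another partner receptor, Rxrg, rose in the same hour. It read 7.83, 7.79 and 8.01 at 2 h, against 7.05, 7.16 and 7.40 at 1 h (0.67 ± 0.11, adjusted p = 0.000701). Ppargc1b, a coactivator of mitochondrial and fat oxidation genes, read 8.88, 8.88 and 8.91 at 2 h, against 8.34, 8.25 and 8.48 at 1 h (0.54 ± 0.085, adjusted p = 0.000701). Tle3, a corepressor that works with PPARγ in fat cells, read 9.09, 9.06 and 9.04 at 2 h, against 8.62, 8.76 and 8.85 at 1 h (0.32 ± 0.059, adjusted p = 0.00278). With only the 6 arrays of the comparison in the model, Tle3 was no longer called (adjusted p = 0.0723). Of 29 measured transcription factors of adipocytes, these 3 rose, Pparg fell and 25 were not called, with a median of 0.00. Cebpa, which maintains the adipocyte state with PPARγ, read 9.98, 10.15 and 10.24 at 2 h and 9.83, 9.86 and 9.83 at 1 h (0.28 ± 0.075, adjusted p = 0.0517). Cebpb, an earlier factor of the same family, read 8.28, 8.46 and 8.52 at 2 h and 7.99, 8.05 and 8.11 at 1 h (0.37 ± 0.10, adjusted p = 0.0584). Both lay just beyond the threshold with arrays that did not overlap, and both were called without 2 h replicate 1 (adjusted p = 0.0227 for Cebpa and 0.0471 for Cebpb).

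Among metabolic targets of PPARγ, Pck1 and Ucp3 rose in this hour. Of 36 measured targets 2 rose, where 0.98% of all genes did, 0 fell and 34 were not called, with a median change of 0.04 against 0.01 over all genes. An unadjusted p below 0.05 was reached by 9 of the 36, against 2362 of all 18781 genes. Pck1, an enzyme that supplies glycerol for fat storage, read 10.05, 9.91 and 10.23 at 2 h, against 9.31, 9.45 and 9.62 at 1 h (0.60 ± 0.12, adjusted p = 0.004). It climbed at every step, from time 0 through 6 h, with means of 8.62, 8.97, 9.46, 10.06 and 10.39. Ucp3, a mitochondrial carrier related to uncoupling protein, read 7.07, 6.87 and 6.99 at 2 h, against 6.29, 6.41 and 6.62 at 1 h (0.54 ± 0.10, adjusted p = 0.00342). Unlike Pck1, Ucp3 was lower again at 6 h, with a mean of 6.63 (6 h minus 2 h -0.34, adjusted p = 0.0308, in a step in which 4.89% of all genes were called lower).

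Several genes that already stood above untreated cells at 1 h were not called in the second hour. Angptl4, an inhibitor of lipoprotein lipase, read 10.43, 10.45 and 10.58 at 2 h and 10.23, 10.32 and 10.34 at 1 h (0.19, 95% confidence interval half-width 0.15, adjusted p = 0.234). Pdk4, a kinase that restrains glucose oxidation, read 8.19, 8.16 and 7.997 at 2 h and 8.26, 8.21 and 8.30 at 1 h (-0.14, half-width 0.22). Irs2, an insulin receptor adaptor, read 8.72, 8.80 and 8.79 at 2 h and 8.74, 8.95 and 8.84 at 1 h (-0.07, half-width 0.16). For Rasgef1b, an exchange factor for Ras-type GTPases, the values were 6.98, 6.96 and 6.92 at 2 h and 6.94, 7.18 and 7.01 at 1 h (-0.09, half-width 0.19), after a step of 1.29 from 30 min to 1 h. For the Wnt receptor Fzd5 they were 7.03, 7.05 and 6.95 at 2 h and 6.99, 7.11 and 6.99 at 1 h (-0.02, half-width 0.17). For each of these 5 genes the interval leaves out a change of 1.5-fold. Both Rasgef1b and Fzd5 were lower at 6 h than at 2 h, by -0.55 and -0.65 (adjusted p = 0.000355 and 1.13e-05).

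Of 10 adipocyte marker genes 1, Pparg, fell and 9 were not called, with changes from -0.56 for Pparg to 0.28 for Cebpa. Fabp4, a fatty acid carrier, read 11.63 on every 2 h array and 11.61, 11.72 and 11.73 at 1 h (-0.06, half-width 0.13), and Adipoq, the hormone adiponectin, read 11.93, 11.96 and 11.93 at 2 h and 11.96, 12.01 and 12.09 at 1 h (-0.08, half-width 0.11). Cd36, Lpl and Plin2 changed by -0.05, -0.08 and 0.00 and were not called. Of 16 measured genes of mitochondrial fat oxidation, 16 regulators of lipolysis, 16 adipokines and 9 targets of the cholesterol sensor LXR, 0 were called by limma after adjustment. In these lists 1, 4, 4 and 1 had an unadjusted p below 0.05, against 2362 of all 18781 genes. Lep, the hormone leptin, had the lowest value among the adipokines, with 4.61, 4.20 and 4.46 at 2 h and 5.40, 5.11 and 5.39 at 1 h (-0.88 ± 0.24, adjusted p = 0.0555). Its arrays did not overlap, its 2 h signal lay below the middle gene, and it was called with only the 6 arrays in the model (adjusted p = 0.0124).

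**Figure D3:**
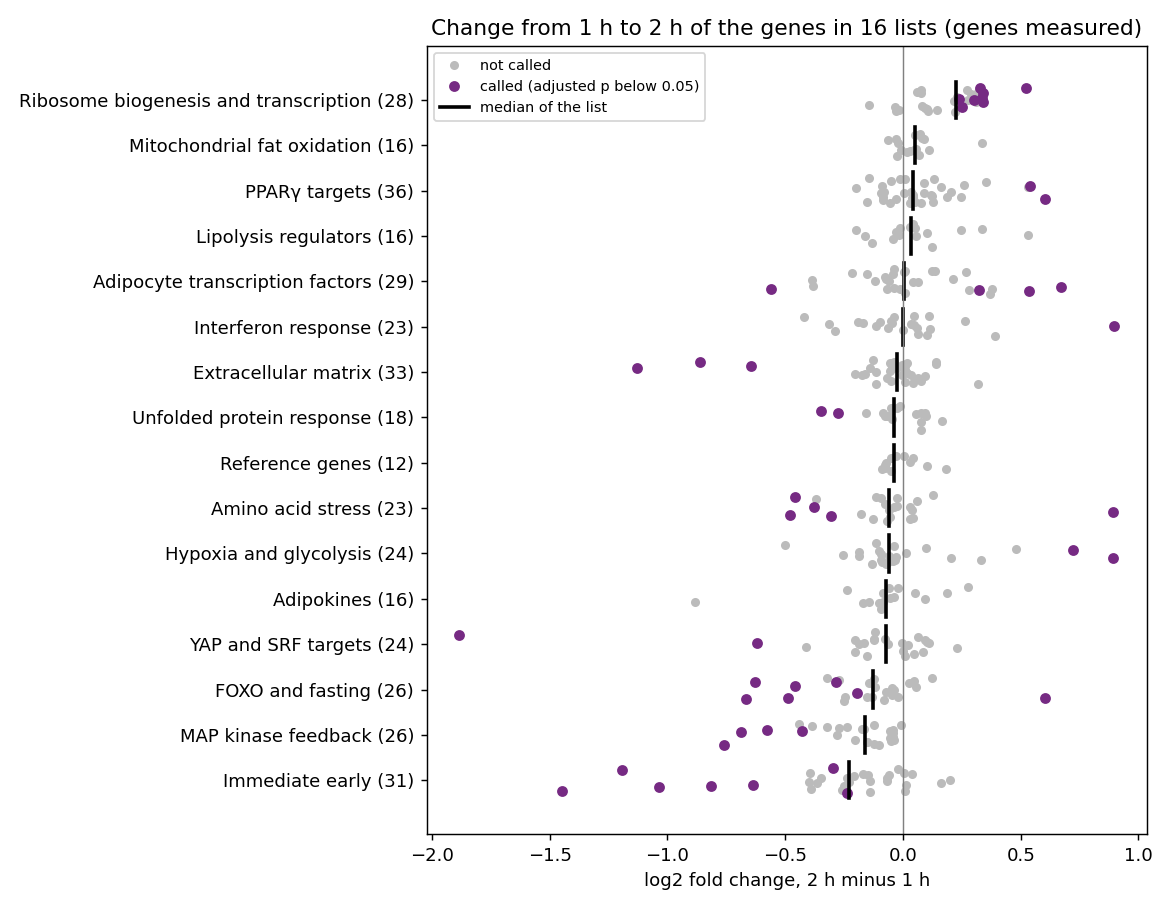
Log2 fold change, 2 h minus 1 h, of each measured gene in 16 lists, 1 point per gene, purple where called, with a black bar at the list's median; the number of genes measured is in brackets and some genes are in several lists. The medians run from -0.23 for immediate early genes to 0.23 for ribosome biogenesis and transcription, and all 26 MAP kinase feedback genes lie left of 0.

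The largest increases were of several kinds. Usp18, a protease that limits interferon signalling, read 7.57, 7.81 and 7.97 at 2 h, against 6.77, 6.76 and 7.12 at 1 h (0.90 ± 0.14, adjusted p = 0.000387). It was the only gene called of 23 measured interferon response genes, whose median was 0.00. Pfkfb3, which makes the strongest activator of glycolysis, read 9.49, 9.65 and 9.86 at 2 h, against 8.90, 8.82 and 9.11 at 1 h (0.72 ± 0.10, adjusted p = 0.000231), with 8.41 in untreated cells and 9.94 at 6 h. Apart from Pfkfb3 and Ddit4, the 24 measured genes of hypoxia and glycolysis were not called, with a median of -0.06. Sh2d3c and Bcar3 are related adaptor proteins of cell adhesion signalling. Sh2d3c read 7.67, 7.58 and 7.84 at 2 h, against 6.83, 6.89 and 6.98 at 1 h (0.80 ± 0.11, adjusted p = 0.000129). Bcar3 read 9.30, 9.39 and 9.35 at 2 h, against 8.69, 8.66 and 8.85 at 1 h (0.61 ± 0.074, adjusted p = 5.14e-05). Both were lower again at 6 h, with means of 6.97 and 8.91.

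Cyth1, an exchange factor for ARF GTPases, read 7.49, 7.56 and 7.70 at 2 h, against 6.80, 7.11 and 7.05 at 1 h (0.60 ± 0.08, adjusted p = 0.000129), and held 7.63 at 6 h. Its promoter window holds the AP-1 letters. Trdn, a muscle calcium release protein, was named by its brightest of 19 probe sets, which read 5.32, 6.04 and 5.47 at 2 h and 4.83, 4.97 and 4.91 at 1 h (0.71 ± 0.13, adjusted p = 0.00323). The mean of its probe sets changed by 0.15 and was not called (adjusted p = 0.317). Snord14e, a small nucleolar RNA that guides methylation of ribosomal RNA, read 7.00, 6.92 and 7.03 at 2 h, against 6.37, 6.15 and 6.63 at 1 h (0.60 ± 0.13, adjusted p = 0.0118). The call of Snord14e ended without 2 h replicate 3 (0.58, adjusted p = 0.0707), without 1 h replicate 1 (0.59, adjusted p = 0.0512) or without 1 h replicate 2 (0.48, adjusted p = 0.099).

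Several ribosome production genes rose by small amounts. Of 28 measured genes of ribosome biogenesis and general transcription, 8 rose, 0 fell and 20 were not called, where 0.98% of all genes rose. A change above 0 was seen in 24 of them, with a median of 0.23 against 0.01 over all genes. Rrp12, which helps export ribosome precursors, read 6.18, 6.29 and 6.30 at 2 h, against 5.71, 5.81 and 5.69 at 1 h (0.52 ± 0.10, adjusted p = 0.00614). The helicase Ddx21 read 8.46, 8.65 and 8.71 at 2 h, against 8.23, 8.25 and 8.34 at 1 h (0.34 ± 0.074, adjusted p = 0.0135). Nolc1, a nucleolar scaffold, read 8.12, 8.19 and 8.23 at 2 h, against 7.88, 7.84 and 7.83 at 1 h (0.33 ± 0.074, adjusted p = 0.0168). Nop58, a core protein of the small nucleolar particles that carry RNAs such as Snord14e, read 7.03, 7.03 and 7.11 at 2 h, against 6.61, 6.82 and 6.71 at 1 h (0.34 ± 0.08, adjusted p = 0.0226). The other members called were Polr1b, a subunit of RNA polymerase I (0.34), Heatr1 (0.30), Nop14 (0.25) and Noc3l (0.24). Fbl, Ncl and Npm1, major nucleolar proteins, changed by 0.23, 0.08 and -0.03 and were not called.

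The count of 8 became 0 without replicate number 2 or 3 in every group, 1 without 2 h replicate 2, 1 without 2 h replicate 3, 2 without 1 h replicate 2, 3 without 1 h replicate 1 or 3, and 2 with only the 6 arrays in the model, and it was 13 with array weights. Rrp12 kept its call without any single array, while Nop58, Nolc1 and Ddx21 each lost it when any 1 of at least 4 of the 6 arrays was left out. At 6 h against untreated cells, with means from arrays outside the comparison, Ddx21, Nolc1 and Rrp12 were higher by 0.47, 0.53 and 0.57 (limma adjusted p = 5.5e-05, 1.24e-05 and 0.000303). Nop58 was not called there (0.10, adjusted p = 0.463). At 12 h the means of Ddx21, Nolc1 and Rrp12 were 8.26, 7.94 and 5.82, against 8.19, 7.77 and 5.79 in untreated cells. At 48 h Ddx21 and Nop58 were lower than in untreated cells (-0.25 and -0.29, adjusted p = 0.0141 and 0.00864), and Nolc1 and Rrp12 were not called (0.08 and -0.18).

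A set of genes that were lower at 1 h than at 30 min stood higher again at 2 h. These are the 6 of largest change among genes called lower at 1 h against 30 min (0.437% of all genes) and higher at 2 h against 1 h, so both steps share the 1 h arrays and a low reading there enters both. Ddit4, an inhibitor of the growth kinase mTORC1, read 7.50, 7.71 and 7.69 at 2 h, against 6.76, 6.68 and 6.77 at 1 h (0.89 ± 0.17, adjusted p = 0.00342). Its means were 8.24 in untreated cells, 7.76 at 30 min, 6.74 at 1 h, 7.63 at 2 h and 8.39 at 6 h. At 6 h Ddit4 was not called against untreated cells (0.16 ± 0.17, adjusted p = 0.622). Zfp553, a zinc finger protein, read 5.45, 5.26 and 5.16 at 2 h, against 4.27, 4.55 and 4.62 at 1 h (0.81 ± 0.14, adjusted p = 0.00213). Its mean of 5.29 at 2 h was close to the 5.24 of untreated cells. Zfp574 read 7.54, 7.57 and 7.59 at 2 h, against 7.03, 6.86 and 6.97 at 1 h (0.61 ± 0.095, adjusted p = 0.000542), with 7.22 in untreated cells. Rrp9, Dusp15 and Gpr146 changed by 0.49, 0.50 and 0.41 in the second hour after -0.43, -0.47 and -0.47 in the step before. Their relation to untreated cells differed from gene to gene: at 1 h Gpr146 was lower than in untreated cells (6.50 against 6.95, adjusted p = 0.0036), while Rrp9 (6.31 against 6.45, adjusted p = 0.714) and Dusp15 (3.53 against 3.60, adjusted p = 0.895) were not called and had higher means of 6.74 and 3.999 at 30 min. Rrp9 acts in ribosomal RNA processing, Dusp15 is a phosphatase and Gpr146 an orphan receptor. The call of Rrp9 ended without 2 h replicate 2 (0.43, adjusted p = 0.0606). No gene was called higher at 1 h against 30 min and lower at 2 h against 1 h.

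Among targets of the stress factor ATF4, 4 genes changed in the opposite direction to Ddit4. Of 23 measured genes of amino acid stress, Ddit4 rose, 4 fell and 18 were not called, with a median of -0.06. Sesn2, which restrains mTORC1 when leucine is short, read 7.95, 7.85 and 7.91 at 2 h, against 8.44, 8.45 and 8.26 at 1 h (-0.48 ± 0.084, adjusted p = 0.00195). Trib3, an inhibitor of the kinase AKT, read 8.98, 8.76 and 8.67 at 2 h, against 9.29, 9.37 and 9.11 at 1 h (-0.46 ± 0.099, adjusted p = 0.0119). Chac1, which breaks down glutathione, read 8.21, 8.09 and 7.95 at 2 h, against 8.44, 8.57 and 8.37 at 1 h (-0.38 ± 0.092, adjusted p = 0.0284). The amino acid carrier Slc38a2 read 10.26, 10.21 and 10.34 at 2 h, against 10.52, 10.57 and 10.63 at 1 h (-0.30 ± 0.078, adjusted p = 0.0381). The groups did not overlap in these 4 genes, which is part of how they were chosen. Sesn2 kept its call without any single array. Trib3 and Chac1 each lost it without 2 h replicate 2, 2 h replicate 3, 1 h replicate 1 or 1 h replicate 2 (adjusted p 0.0571 to 0.192), and Slc38a2 without any 1 of the 6 (adjusted p 0.0724 to 0.174). At 6 h the means of Sesn2, Chac1 and Slc38a2 were 8.46, 8.83 and 10.68, near the untreated 8.61, 8.79 and 10.71, while Trib3 stayed at 8.78 against 9.41 in untreated cells.

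The composite site read by ATF4 with C/EBP partners (TGATGNAA, found here as its reverse complement) stood in 7.69% of promoters of genes that fell and 3.8% of genes that rose, against 3.61% of all genes. It is shown for Gadd45g, which rose, and for Chac1 and Herpud1, which fell, to show that the same letters stand before genes of both directions. The stretches lie at chr13:51846534-51846621 (+), chr2:119351009-119351096 (+) and chr8:94386277-94386364 (+) of GRCm38.p6, all before the start site, with the site in capitals.
Gadd45g: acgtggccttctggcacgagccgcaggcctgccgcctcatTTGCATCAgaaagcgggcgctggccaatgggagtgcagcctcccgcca
Chac1: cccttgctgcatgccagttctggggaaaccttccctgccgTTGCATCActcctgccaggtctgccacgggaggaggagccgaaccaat
Herpud1: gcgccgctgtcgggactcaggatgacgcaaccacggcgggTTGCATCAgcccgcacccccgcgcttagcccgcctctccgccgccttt

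Herpud1, a helper of protein disposal at the endoplasmic reticulum, read 9.47, 9.53 and 9.45 at 2 h, against 9.81, 9.86 and 9.81 at 1 h (-0.35 ± 0.061, adjusted p = 0.00213). Xbp1, a transcription factor of the unfolded protein response, read 10.86, 10.92 and 10.83 at 2 h, against 11.12, 11.22 and 11.09 at 1 h (-0.28 ± 0.056, adjusted p = 0.00765). These were the genes called of 18 measured in that response, and 0 of 11 heat shock genes were called by limma (1 at an unadjusted p below 0.05). The call of Xbp1 ended without 2 h replicate 3 (adjusted p = 0.0619) or 1 h replicate 2 (adjusted p = 0.0629). Gadd45g, a growth arrest protein, read 8.83, 9.12 and 9.21 at 2 h, against 8.48, 8.63 and 8.57 at 1 h (0.50 ± 0.11, adjusted p = 0.0165). Its relative Gadd45a went down, with 7.13, 6.83 and 6.76 at 2 h, against 7.56, 7.68 and 7.47 at 1 h (-0.67 ± 0.099, adjusted p = 0.000363). The call of Gadd45g ended without 2 h replicate 2 or 3 or 1 h replicate 1 (adjusted p 0.0871 to 0.127).

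Genes driven by FOXO factors, which insulin signalling holds down, fell in part. Over all genes 0.905% fell and 0.98% rose, and the 26 measured genes of the FOXO and fasting list had a median of -0.13. Of these 26, 6 fell, 1 rose and 19 were not called. Those that fell were Gadd45a, Trib3, Cited2, Foxo3, Cdkn1b and Txnip, while Pck1, which is also a PPARγ target, rose. Cited2, a coregulator of CBP and p300, read 8.62, 8.38 and 8.49 at 2 h, against 9.29, 9.20 and 8.87 at 1 h (-0.63 ± 0.093, adjusted p = 0.000326). Foxo3, itself a FOXO factor, read 6.27, 6.20 and 5.99 at 2 h, against 6.72, 6.61 and 6.58 at 1 h (-0.49 ± 0.084, adjusted p = 0.00184). Cited2 and Foxo3 kept their calls without any single array. Cdkn1b, a cell cycle inhibitor, fell by 0.28 and Txnip, a glucose-responsive arrestin, by 0.20. The call of Cdkn1b ended without 2 h replicate 3 (-0.25, adjusted p = 0.093) or 1 h replicate 2 (-0.26, adjusted p = 0.0758). With its 2 probe sets averaged, Cdkn1b changed by -0.18 and was not called (adjusted p = 0.171). Txnip lost its call without any 1 of the 6 arrays (-0.15 to -0.22, adjusted p 0.0669 to 0.23). Irs2, a FOXO target as well, was not called, as given above.

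Smaller groups were mixed. Of 23 glucocorticoid-responsive genes, Ddit4 and the zinc finger factor Zbtb16 rose, and Errfi1, the kinase Sgk1 and Hif3a fell, with a median of -0.07. Sgk1 read 4.83, 4.70 and 4.84 at 2 h, against 5.42, 5.50 and 5.20 at 1 h (-0.58 ± 0.084, adjusted p = 0.000259). Zbtb16 read 8.50, 8.53 and 8.35 at 2 h, against 8.15, 8.10 and 7.98 at 1 h (0.39 ± 0.08, adjusted p = 0.00819), a call that ended without 2 h replicate 2 (adjusted p = 0.0579) or 1 h replicate 3 (adjusted p = 0.0538). Of 33 inflammatory genes, Tnfaip2 rose by 0.40 and Birc3, an inhibitor of cell death, fell by 0.55 on the log2 scale, a call that ended without 2 h replicate 3 (-0.44, adjusted p = 0.062). By limma 0 of 16 measured clock genes and 0 of 12 reference genes were called, where 1.88% of all genes were. An unadjusted p below 0.05 was reached by 9 of the 16 clock genes and 1 of the 12 reference genes, against 2362 of all 18781 genes. Changes of the clock genes ran from -0.395 to 0.504.

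A microRNA gene stood among the 12 largest decreases. Mirlet7c-1 read 4.12, 3.71 and 3.72 at 2 h, against 4.86, 4.66 and 4.92 at 1 h (-0.96 ± 0.24, adjusted p = 0.0315). The array reads RNA of the gene, and the mature product was not measured. The 2 h signal was below the middle gene. The call ended without any 1 of 5 arrays, all but 2 h replicate 1, with changes of -0.89 to -1.04 and adjusted p of 0.0628 to 0.14. RefSeq places its mature let-7c-5p at chr16:77599672-77599693 (+) of GRCm38.p6, shown here to identify the gene, with the seed of bases 2 to 8 in capitals.
let-7c-5p: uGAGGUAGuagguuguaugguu

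The genes called in the second hour were looked up at 6 h and 48 h against untreated cells. The means there use none of the 1 h or 2 h arrays, but each gene's estimate of spread comes from all 27 arrays. A gene with a small spread is thus more easily called in both comparisons. Above the median level lay 168 of the 184 genes that rose and 142 of the 170 that fell. The shares of all genes given beside them include dim genes. Of the 184 genes that rose, 117 were called higher at 6 h (63.6% of them and 7.43% of the 1575 genes higher there), 1 was lower and 8.39% of all genes were higher. Of the 170 that fell, 92 were called lower at 6 h (54.1% of them and 5.99% of the 1536 lower there) and 2 were higher, against 8.18% of all genes lower. The median change at 6 h was 0.33 for genes that had risen and -0.29 for genes that had fallen. At 48 h the directions were looser. Of the 184, 70 were higher (38%) and 14 lower, and of the 170, 71 were lower (41.8%) and 19 higher, against 12.6% and 11.4% of all genes called higher and lower. At 30 min against untreated cells, 0 of the 184 and 2 of the 170 were called, both higher, where 0.0479% of all genes were called higher.

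**Figure D4:**
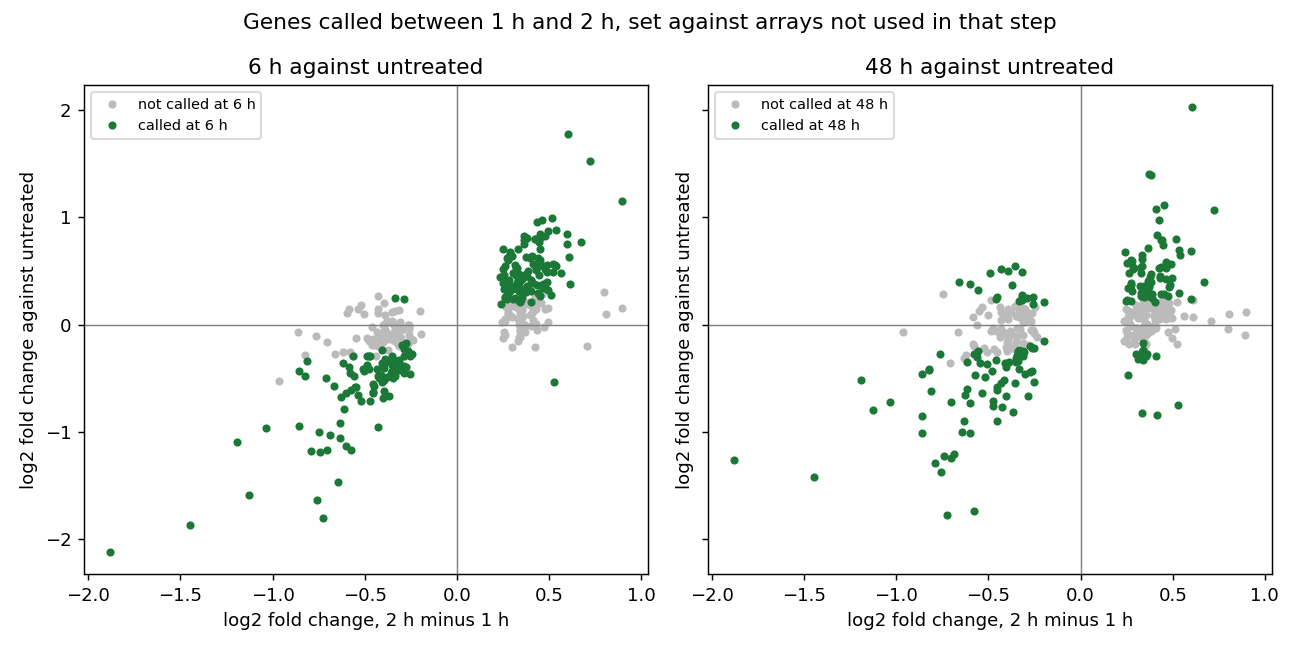
Log2 fold change at 6 h (left) and 48 h (right) against untreated cells, plotted against the change from 1 h to 2 h, 1 point per gene called in that step (184 higher, 170 lower), green where also called at the later time. At 6 h 117 of the genes right of 0 are called above 0 and 92 of those left of 0 are called below it; at 48 h these counts are 70 and 71, with more green points in the opposite quadrants.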

How the data were processed

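The 27 samples were hybridised to Affymetrix Mouse Gene 1.1 ST arrays. The authors deposited 1 log2 intensity for each probe set and array. Their tools were Partek and RMA (background correction, normalisation and probe summary), per the submitters' processing notes; versions and the genome build are not given in the sources used here. Of 28815 probe sets, 21153 carried 1 gene symbol, 1867 several and 5795 none in the platform annotation; 21123 matched the RefSeq gene table, with 0 symbols changed. The brightest probe set stood for each of 1367 genes with several, giving 18781 genes, and no filter on dim genes was used.

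Group means of all 27 arrays, sharing 1 estimate of spread, went into limma (version 3.58.1, R 4.3.3; lmFit then eBayes, no covariates), with two-sided tests, Benjamini-Hochberg adjusted p-values across the 18781 genes and a threshold of 0.05. Precision is limited by 3 arrays a group; the median SE was 0.088. The same procedure, tested on simulated data for this comparison with 100 genes changed by each size, called 90% of changes of 0.5 and 100% of changes of 1, with 14 false calls. The simulated noise was independent between arrays, and changes smaller than 0.5, the size of many calls here, were not simulated. No pair of arrays was identical. Tables and plots were made with Python 3.11.15, pandas 2.3.3, numpy 2.4.6 and matplotlib 3.10.9.

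The comparison, the 36 gene lists (821 entries, 57 not measured) and the panel of named genes were chosen with earlier results of these data known. The rule for names took, among called genes whose arrays did not overlap, the 12 highest and 12 lowest changes, the 4 of smallest p in each list, and up to 6 genes per direction that turned between 1 h and 2 h, plus a panel. Other members of lists, the microRNA sequence and the promoter stretches were picked after their values were seen; the stretches replace those of the 24 genes of largest change. Promoters and microRNAs are RefSeq's, GRCm38.p6. Alternatives were a replicate block, removal of genes under the median level, averaged probe sets, centring, quantile normalization, trended and robust variance, array weights, the 6 arrays alone, a 1.5-fold minimum, and leaving out each replicate number or array. The 17 alternatives counted for single genes leave out the 1.5-fold minimum.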

Additional observations from a re-analysis of the deposited data

How the results depend on the processing

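The 354 calls (184 higher, 170 lower) became 227 (117 and 110) with the replicate number as a block, 220 (108 and 112) with only the 6 arrays in the model, 700 (387 and 313) with array weights and 47 (12 and 35) with a minimum of 1.5-fold. The weights gave 2 h replicate 2 the highest (1.62) and 1 h replicate 1 the lowest (0.81) of the 6 arrays. Leaving out single arrays gave 147 to 257 calls (77 to 136 higher, 70 to 126 lower), and leaving out 1 replicate number in every group, which leaves 2 arrays each, gave 31 to 139 (11 to 64 higher, 20 to 75 lower). Of these calls, 29 of 31 to 118 of 139 were among the 354, and all 354 were among the 700. Centring, quantile normalization, trended variance, averaged probe sets and dim gene removal gave 309 to 462 calls. The share of higher genes among the calls was 52%, 51.5% after centring and 47.8% after quantile normalization, and the median change of all genes was 0.01, 0.01 and 0.00. Same-numbered arrays of 2 h and 1 h did not deviate together (r of -0.02, -0.13 and -0.02 between deviations from group means). Deviations from means of 3 arrays cannot settle whether same numbers share a culture or batch, and the labels do not say. The block ended the calls of 7 of 67 called named genes. Of these 67, 41 kept their call without any single array and 12 in all 17 alternatives, and 0 reversed. Leaving out replicate number 1, 2 or 3 ended 26, 49 and 37 of them, with 2 arrays a group left each time. Cebpa, Cebpb and Lep, not called, were called under some alternatives. The signal of dim genes such as Dusp6, Fos and Mirlet7c-1, below the middle gene, limits what their changes can show.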

Other observations

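Further groups were picked out after their values were seen and carry no test of the group. Of 17 measured Klf transcription factors 4 fell, where 0.905% of all genes did, and 0 rose, with a median of -0.12. Beside Klf6 and Klf4 these were Klf3, at 7.17, 7.01 and 7.05 at 2 h, against 7.49, 7.47 and 7.34 at 1 h (-0.35 ± 0.078, limma adjusted p = 0.0135), and Klf7, at 7.03, 6.85 and 6.50 at 2 h, against 7.41, 7.22 and 7.23 at 1 h (-0.49 ± 0.12, adjusted p = 0.037). Zfp36l1 and Zfp36l2, proteins that bind AU-rich messenger RNAs and speed their decay, fell together. Zfp36l1 read 7.68, 7.65 and 7.47 at 2 h, against 8.27, 8.21 and 8.13 at 1 h (-0.60 ± 0.081, adjusted p = 0.000129). Zfp36l2 read 9.04, 8.92 and 8.86 at 2 h, against 9.40, 9.43 and 9.27 at 1 h (-0.43 ± 0.074, adjusted p = 0.00184). Their relative Zfp36 changed by -0.25 ± 0.10 and was not called (adjusted p = 0.271).

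Among 333 other genes with a Zfp symbol, most of them zinc finger proteins of little known function, 14 rose and 7 fell, with a median of 0.03. Over all genes 0.98% rose and 0.905% fell. Examples that rose are Zfp954, at 4.88, 4.86 and 4.86 at 2 h, against 4.50, 4.31 and 4.37 at 1 h, and Zfp84, at 6.04, 5.98 and 5.95 at 2 h, against 5.55, 5.48 and 5.56 at 1 h (0.47 ± 0.12 and 0.46 ± 0.087, adjusted p = 0.0293 and 0.004). Of 58 small nucleolar RNA genes, Snora21 rose beside Snord14e, where 0.98% of all genes rose, and 0 fell. Snora21 read 5.54, 5.64 and 5.69 at 2 h, against 5.02, 5.14 and 5.17 at 1 h (0.51 ± 0.095, adjusted p = 0.00323). Mir150, the other microRNA gene that fell, read 3.25, 3.05 and 3.10 at 2 h, against 3.38, 3.40 and 3.65 at 1 h (-0.34 ± 0.083, adjusted p = 0.0276), a signal near the bottom of the array's range.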
